A study of Mus musculus with 3 samples.

Results

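The transcripts of 10 Z-disc genes (Actn2, Ldb3, Pdlim5, Csrp3, Tcap, Myoz2, Nebl, Des, Cryab and Flnc) were read in mouse embryo hearts labelled Lrrc10-/- and wild type on two-colour Agilent arrays of 60-base probes. Their probes were all those whose gene name in the scanner files is 1 of the 10, which gave 24 of the 41174 gene probes on the array, for 10 of its 27385 gene names. LRRC10, a protein with leucine-rich repeats that is made in cardiac myocytes, colocalises with markers of the Z-disc and of the sarcoplasmic reticulum. By electron microscopy it lies mostly beside the Z-disc, where the sarcoplasmic reticulum meets the transverse tubule. The comparison addresses whether transcripts of the Z-disc differ when Lrrc10 is lost before birth. Each of the 3 arrays, 1 per replicate, set RNA labelled as a pool of 2 Lrrc10-/- hearts (Cy5, red) against RNA labelled as a pool of 2 wild-type (Lrrc10+/+) littermate hearts (Cy3, green), and the signal of Lrrc10 itself went against these labels. All hearts were at E15.5 on the C57BL/6 background and came from matings of Lrrc10+/- parents. The knockout is present in every cell, and whole hearts were used, so that fewer muscle cells and less RNA per muscle cell cannot be told apart. No array had its dyes swapped, and genotype and dye cannot be told apart. For wild-type RNA an adult age is entered as well, and the E15.5 that the other labels give was taken.

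The Z-disc is the plate that borders each sarcomere, the contractile unit of striated muscle. Actin filaments of neighbouring sarcomeres end in it and are crosslinked there by α-actinin, and titin is anchored in it by the titin cap. Around this lattice sit LIM-domain and PDZ-domain adaptors, the intermediate filament desmin, and the chaperone that protects desmin, and mutations in many of these proteins are known causes of cardiomyopathy.

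The stretches of transcript that carry the results below are shown first, 5′ to 3′, as the files give them, with mm9 positions. The single probes of Actn2 and Des were chosen because each gene rests on 1 sequence. In the Des probe, capitals mark the stop codon, after which 4 bases remain. A probe whose genomic span exceeds its 60 bases, such as those of Actn2 and Des, crosses a splice junction and reads spliced RNA.
Actn2, A_51_P108266, chr13:12364990-12367362, minus strand: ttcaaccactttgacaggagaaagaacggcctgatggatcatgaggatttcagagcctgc
Des, A_51_P335969, chr1:75363404-75363629, plus strand: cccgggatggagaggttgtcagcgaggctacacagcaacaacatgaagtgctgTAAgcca
The Pdlim5 probes are shown because all 5 of them were higher on the same array. A probe of its relative Ldb3 stands above them because it reads the matching stretch of the related protein. Capitals in this pair mark the 27 of 40 overlapping bases that are identical, or 67.5%, at the ungapped offset with the most matches.
Ldb3, A_51_P265351, chr14:35374976-35375035, minus strand: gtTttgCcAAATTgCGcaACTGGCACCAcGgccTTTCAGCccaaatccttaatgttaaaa
Pdlim5, A_52_P149438, chr3:141966314-141966373, minus strand: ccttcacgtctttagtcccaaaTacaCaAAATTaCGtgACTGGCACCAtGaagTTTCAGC
Pdlim5, A_52_P649177, chr3:141967371-141967430, minus strand: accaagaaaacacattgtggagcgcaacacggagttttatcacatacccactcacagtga
Pdlim5, A_52_P339246, chr3:141975348-141975407, minus strand: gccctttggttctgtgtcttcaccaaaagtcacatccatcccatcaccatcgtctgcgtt
Pdlim5, A_52_P662600, chr3:141907934-141910276, minus strand: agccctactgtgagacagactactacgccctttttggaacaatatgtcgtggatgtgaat
Pdlim5, A_51_P408881, chr3:141907869-141907928, minus strand: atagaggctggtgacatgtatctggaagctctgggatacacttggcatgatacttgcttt
The brightest probes of Cryab and Myoz2 are shown because a further probe of each gene gave ratios of the opposite sign on 1 or more arrays.
Cryab, A_52_P106482, chr9:50564440-50564499, plus strand: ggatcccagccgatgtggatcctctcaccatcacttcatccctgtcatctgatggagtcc
Myoz2, A_51_P248638, chr3:122709486-122716527, minus strand: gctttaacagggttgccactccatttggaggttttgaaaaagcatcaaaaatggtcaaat

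The labels were checked on Lrrc10 itself. Its processed signal, the software's background-subtracted and dye-normalised intensity, was 6294, 8521 and 12640 in Cy5, against 280.7, 236.8 and 199.8 in Cy3 on replicates 1, 2 and 3. The channel with the knockout label was thus the brighter for the knocked-out gene on 3 of 3 arrays, against the labels. After background correction and loess normalisation within each array, its log2 ratio of Cy5 over Cy3 averaged 4.41 ± 0.40 (SD, n = 3; limma adjusted p = 0.000387). Every ratio below is given as labelled, with Cy5 (labelled Lrrc10-/-) in the numerator and Cy3 (labelled wild type) in the denominator, and higher and lower change places if the labels were exchanged.

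No probe of the 10 genes was called in either direction. Of the 24 probes, 23 were well above background and were tested. With p-values adjusted over all 28328 tested probes by limma, 0 of the 23 were called higher, against 1.39% of all tested probes, and 0 were called lower, against 0.00353%. At an unadjusted p under 0.05, 5 of the 23 were higher, against 9.07% of all probes, and 0 were lower, against 4.26%. Those 5 were the only probe of Tcap and 1 probe each of Ldb3, Pdlim5, Flnc and Myoz2. A selection modelled on that of the methods asked for a 1.2-fold software ratio in 1 direction and a software p under 0.05 on each array. This selection took 0 member probes as higher, against 2.14% of probes with enough signal, and 0 as lower, against 0.132%. Without replicate 1 it took 1 of 23 member probes, of Flnc, as higher, against 3.43% of probes with enough signal, and without replicate 2 it took 1 of 23, of Pdlim5, against 5.28%. In those settings it took 0 as lower, against 0.536% and 2.56%.

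Member ratios spread to both sides of 0. The mean was above 0 for 12 probes and below 0 for 11, and it was above 0 for 5 and below 0 for 5 of the 10 genes when each was represented by its brightest probe. The median log2 ratio of the 23 probes was 0.0079, beside 0.013 over all tested probes, and probe means ranged from -0.28 to 0.45. That median is the value of the Csrp3 probe, which was saturated on 2 of 3 arrays. Without Csrp3, left out after the data were seen, the 22 probes split into 11 above and 11 below 0, the genes into 4 above and 5 below, and the median was 0.02. Ratios lay above 0 on all 3 arrays for 6 member probes, against 19.1% of all probes, and below 0 on all 3 for 3 probes, against 17.4%. The 6 were probes of Tcap, Ldb3, Pdlim5, Flnc, Myoz2 and Cryab, and the 3 were probes of Des, Flnc and Nebl, so that Flnc stood in both groups through different probes. The 95% limma interval of a member's mean reached from 1.2-fold to 1.4-fold on either side of it, with a median of 1.26-fold. Over all tested probes the smallest mean that was called higher was 0.64 on the log2 scale, or 1.56-fold.

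**Figure D1:**
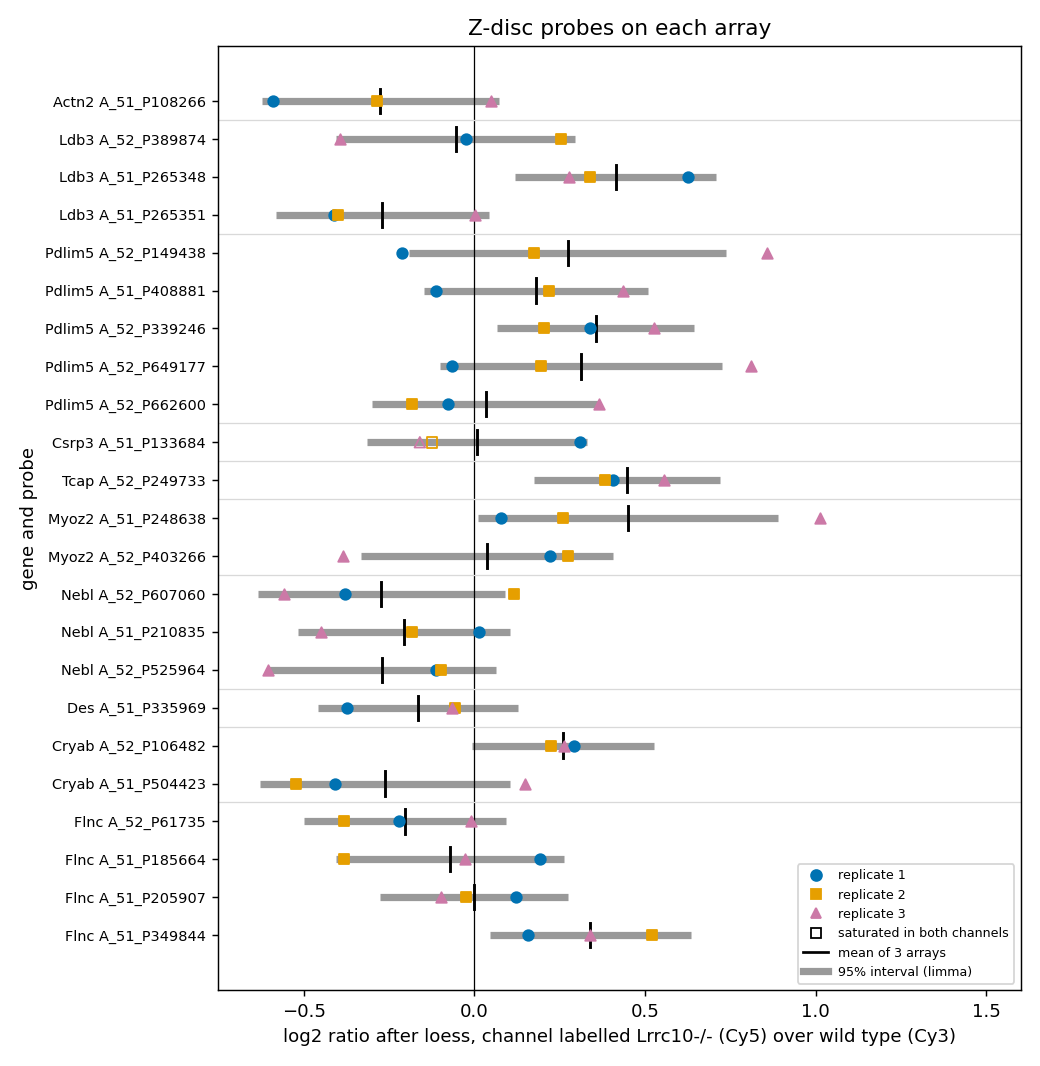
Log2 ratios after loess (x axis, Cy5 over Cy3) of the 23 tested probes of the 10 Z-disc genes (y axis). Each symbol is 1 array, black bars are means over 3 arrays, grey bars are 95% limma intervals, and open symbols are saturated in both channels. Only the 5 probes of Tcap, Ldb3, Pdlim5, Flnc and Myoz2 have an interval clear of 0, and none has an adjusted p under 0.05.

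Actn2 encodes the muscle α-actinin that crosslinks actin filaments in the Z-disc. Its processed signals were 36180, 19670 and 37680 in Cy5, against 52310, 24280 and 40130 in Cy3 on replicates 1, 2 and 3. The Cy5 channel was the dimmer of the pair on all 3 arrays, although the ranges of the channels overlapped. After loess the log2 ratio was -0.59, -0.28 and 0.05, lower in Cy5 on replicates 1 and 2 and near 0 on replicate 3. The mean of -0.28 ± 0.32 (SD, n = 3) corresponded to 0.83-fold, with a 95% interval of 0.65-fold to 1.05-fold, and was not called (limma adjusted p = 0.477). Under the alternatives that kept all 3 arrays the adjusted p ranged from 0.295 to 0.736, and without replicate 3 the mean was -0.44 with a limma adjusted p of 0.0886. As labelled, this direction is opposite to the one that the study gives for Actn2, both from its arrays and from separate qRT-PCR of embryonic hearts. With the labels exchanged the mean would be 1.21-fold, with a 95% interval of 0.951-fold to 1.54-fold, and would likewise not be called.

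Ldb3 encodes the PDZ-LIM protein ZASP, or cypher, which binds α-actinin. Its 3 probes, all on chromosome 14, read different parts of the gene and did not move as one. The brightest probe, designed on the accession of RefSeq transcript variant 1, had processed signals of 1274, 1848 and 2884 in Cy5, against 1281, 1504 and 3791 in Cy3, and its log2 ratio was -0.02, 0.25 and -0.39. That probe lay near 0, above it and below it on the 3 arrays, with a mean of -0.05 ± 0.33 (SD, n = 3; limma adjusted p = 0.909), and its sign changed with the processing.

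The other Ldb3 probes were designed on the accession of variant 7 and lie within 1 short region (chr14:35374689-35375035). The first of them by genomic position, A_51_P265348, gave log2 ratios of 0.62, 0.34 and 0.28, above 0 on every array. Its mean was 0.41 ± 0.19 (SD, n = 3), or 1.33-fold, and was not called (limma adjusted p = 0.230). The probe whose sequence is printed above, A_51_P265351, gave -0.41, -0.40 and 0.0025, with a mean of -0.27 ± 0.24 (SD, n = 3; limma adjusted p = 0.438). The former exceeded the latter by 1.03, 0.74 and 0.28 on replicates 1, 2 and 3, in the same direction each time, and the exact permutation p of 0.25 (two-sided) is the smallest that 3 arrays allow.

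Pdlim5 encodes ENH, a PDZ-LIM adaptor that also binds α-actinin and recruits protein kinase C. It has the most probes of the 10 genes, and their ratios depended on the array. All 5 probes were higher in Cy5 on replicate 3, 4 of 5 on replicate 2 and 1 of 5 on replicate 1. On the brightest probe, A_52_P149438, processed signals were 6591, 6373 and 22180 in Cy5, against 7123, 5456 and 12940 in Cy3. The channels nearly coincided on replicates 1 and 2, and Cy5 was 1.71-fold the brighter on replicate 3.

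After loess this Pdlim5 probe gave log2 ratios of -0.21, 0.17 and 0.86, with a mean of 0.27 ± 0.54 (SD, n = 3; limma adjusted p = 0.594). Replicate 3 carried that mean, which was -0.02 without it. On replicate 3 the 5 probes ranged from 0.37 to 0.86 after loess and from 0.47 to 1.31 on the software's scale. The probe with the lowest p of the 5, A_52_P339246, was above 0 on all arrays (0.34, 0.20 and 0.52), with a mean of 0.36 ± 0.16 (SD, n = 3) that was not called (limma adjusted p = 0.280). It is also the dimmest, with Cy3 signals of 106.1 to 235. Probes designed on the accession of transcript variant 1 (A_51_P408881 and A_52_P662600) averaged 0.18 and 0.03, and the other probes, designed on that of variant 2 (A_52_P149438, A_52_P339246 and A_52_P649177), averaged 0.27, 0.36 and 0.31. Whether a probe of Pdlim5 or Ldb3 reads only the variant of its accession was not determined. Over the 10 pairs that the 5 probes form, differences took the same sign on all 3 arrays in 2, and the interval of every mean but that of A_52_P339246 spanned 0.

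Csrp3 encodes muscle LIM protein, an adaptor of the Z-disc that binds α-actinin and the titin cap. Its 1 probe (chr7:56086063-56087977) was saturated in both channels on replicates 2 and 3, so that no fold is given there. On replicate 1, where it could be measured, signals were 54020 in Cy5 and 52780 in Cy3, a software ratio of 1.02-fold and a log2 ratio of 0.31 after loess. The ratios of -0.12 and -0.16 on the other arrays lay within the ranges of probes saturated in both channels there, -0.19 to -0.11 on replicate 2 and -0.26 to -0.09 on replicate 3. The mean over 3 arrays (0.0079; limma adjusted p = 0.986) thus rests on 1 measured array and gives no bound on Csrp3.

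Tcap encodes telethonin, the titin cap. It had the lowest p of the 23 probes. Processed signals were 25150, 30390 and 62610 in Cy5, against 24680, 27680 and 48600 in Cy3 on replicates 1, 2 and 3. Cy5 was the brighter on every array, by little on the first and by most on the third, and the ranges of the channels overlapped. Loess left log2 ratios of 0.41, 0.38 and 0.56 and a mean of 0.45 ± 0.09 (SD, n = 3), or 1.36-fold with a 95% interval of 1.13-fold to 1.65-fold. This was not called (limma adjusted p = 0.167), and the adjusted p ranged from 0.135 to 0.782 under the alternatives that kept all 3 arrays. The size depended on the scale: the software's ratios of the same spots were 1.02-fold, 1.10-fold and 1.29-fold, a mean log2 of 0.18 ± 0.17.

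Myoz2 encodes calsarcin-1, which links α-actinin to calcineurin. Its brightest probe, printed above, spans a splice junction and had processed signals of 11280, 15620 and 33540 in Cy5, against 13540, 15370 and 18110 in Cy3. Cy5 was the dimmer on replicate 1, level on replicate 2 and 1.85-fold the brighter on replicate 3. Loess left log2 ratios of 0.08, 0.26 and 1.01 and a mean of 0.45 ± 0.50 (SD, n = 3; limma adjusted p = 0.364), and without replicate 3 the mean was 0.17. The other Myoz2 probe, A_52_P403266 (chr3:122727172-122727231, minus strand), which was designed on a cDNA clone rather than a RefSeq transcript, gave 0.22, 0.27 and -0.39. The brightest probe less the other was -0.14, -0.02 and 1.4 on replicates 1, 2 and 3, and they took opposite signs on replicate 3 alone.

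**Figure D2:**
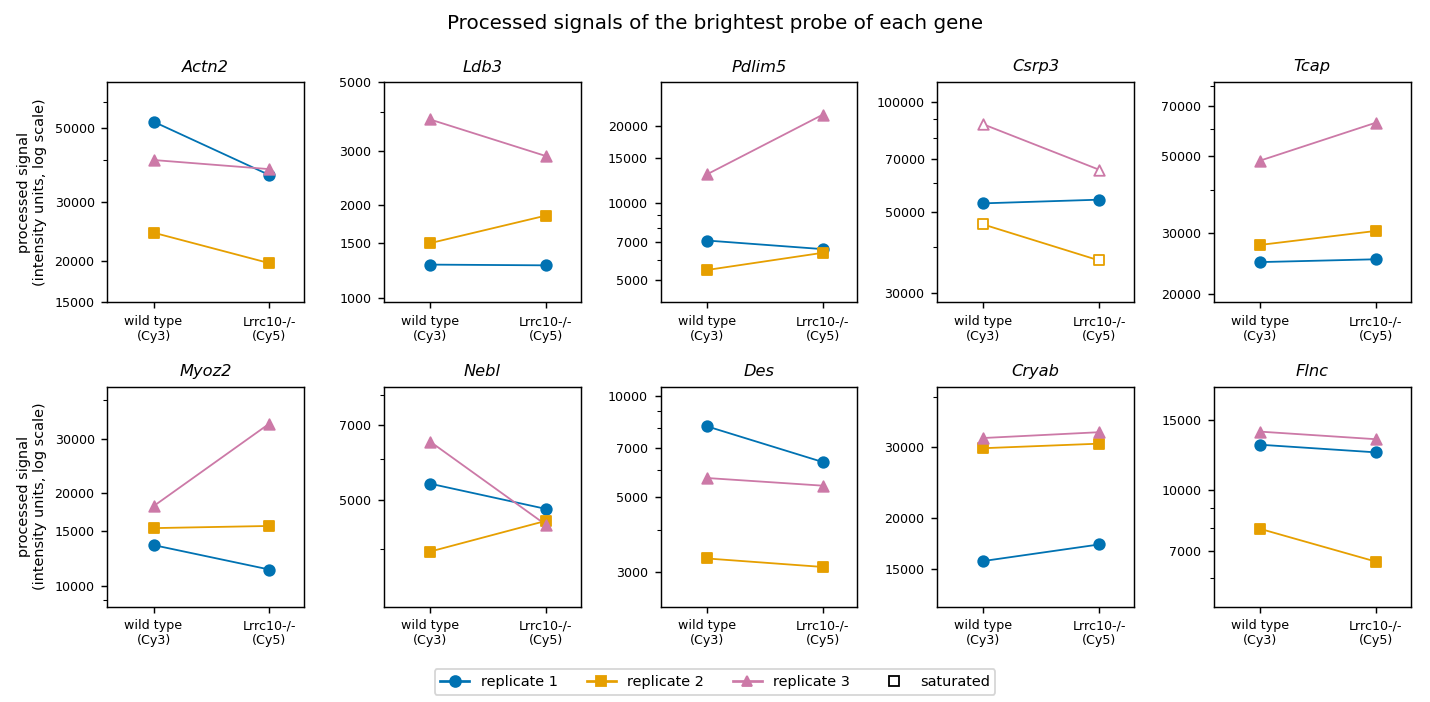
Processed signals (y axis, intensity units, log scale) in the channel labelled wild type (Cy3) and the channel labelled Lrrc10-/- (Cy5) for the brightest probe of each gene. A line joins the channels of 1 array, and open symbols are saturated. The largest differences between channels are those of Myoz2 and Pdlim5 on replicate 3 (1.85-fold and 1.71-fold), while Ldb3 and Tcap are nearly level on replicate 1 (0.99-fold and 1.02-fold). Signals of different probes are not comparable.

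Nebl encodes nebulette, the cardiac relative of nebulin that runs along actin filaments at the Z-disc. Of its 4 probes on chromosome 2, 3 were tested, and their means were all below 0, at -0.27, -0.21 and -0.27. The brightest, A_52_P607060 (chr2:17266211-17266270, minus strand), had processed signals of 4797, 4546 and 4467 in Cy5, against 5373, 3960 and 6491 in Cy3. The Cy5 channel hardly varied between arrays, whereas Cy3 was lowest on replicate 2 and highest on replicate 3. After loess the ratios were -0.38, 0.12 and -0.56 (mean -0.27 ± 0.35, SD, n = 3; limma adjusted p = 0.498).

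A_52_P525964 was the Nebl probe that lay below 0 on all 3 arrays, at -0.11, -0.10 and -0.61 (mean -0.27 ± 0.29, SD, n = 3; limma adjusted p = 0.466). All 3 tested Nebl probes were lower on replicate 3, by -0.45 to -0.61 after loess, while on replicates 1 and 2 the largest size was -0.38. The naming of this gene differs between files: A_52_P607060 is named Nebl only in the file of replicate 1 and A_51_P210835 only in that of replicate 3, while the other 22 probes carry a member's name in all 3. The untested probe, A_52_P298112, was well above background in Cy5 on replicate 2 alone.

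Des encodes desmin, the intermediate filament that ties neighbouring Z-discs together. Its probe is printed 10 times on each array, which shows the technical spread. Mean processed signals over those spots were 6357, 3106 and 5408 in Cy5, against 8109, 3291 and 5698 in Cy3. Cy5 was the dimmer on all 3 arrays, most on replicate 1, and the ranges of the channels overlapped. Loess left log2 ratios of -0.37, -0.06 and -0.06 and a mean of -0.16 ± 0.18 (SD, n = 3), or 0.89-fold with a 95% interval of 0.73-fold to 1.09-fold (limma adjusted p = 0.612). Among the 10 spots of 1 array the ratio had an SD of 0.28, 0.19 and 0.05 on replicates 1, 2 and 3. These are SDs of single spots, whereas the value of each array is a mean over 10 spots. They are therefore not comparable with the SD of 0.18 between arrays.

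Cryab encodes αB-crystallin, a small heat shock protein that binds desmin at the Z-disc. Its brightest probe, printed above, had processed signals of 17240, 30590 and 32650 in Cy5, against 15690, 29810 and 31590 in Cy3. Cy5 was slightly the brighter on each array, and the ranges overlapped. After loess the ratios were 0.29, 0.22 and 0.26, with the smallest SD among the brightest probes of the 10 genes and a mean of 0.26 ± 0.03 (SD, n = 3), with a 95% interval of -0.0060 to 0.53 on the log2 scale (limma adjusted p = 0.386). On the software's scale the mean was 0.07. The other probe, A_51_P504423 (chr9:50561281-50561340, plus strand), gave -0.41, -0.52 and 0.15, lower than the brightest probe by 0.70, 0.75 and 0.11. The mean over both probes was -0.00098, and the difference between them had the smallest exact permutation p that 3 arrays allow (0.25, two-sided).

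Flnc encodes filamin C, a large actin crosslinker of the muscle Z-disc. Its 4 probes on chromosome 6 gave means of -0.20, -0.07, -0.00093 and 0.34. The brightest, A_52_P61735 (chr6:29411633-29411692), had signals of 12410, 6599 and 13390 in Cy5, against 12970, 7975 and 13990 in Cy3. Cy5 was the dimmer on all 3 arrays, and the loess ratios of -0.22, -0.38 and -0.01 averaged -0.20 ± 0.19 (SD, n = 3; limma adjusted p = 0.531).

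The highest Flnc mean came from a dim probe, A_51_P349844 (chr6:29403225-29403284), at 0.16, 0.52 and 0.34 (mean 0.34 ± 0.18, SD, n = 3; limma adjusted p = 0.310). Its signals were 294.1, 157.9 and 213.2 in Cy5, against 252.1, 96.07 and 110.1 in Cy3, and Cy5 was the brighter on every array. It exceeded the brightest Flnc probe by 0.38, 0.90 and 0.35 on the 3 arrays. Of the 6 genes with more than 1 tested probe, Ldb3, Cryab and Flnc had probe means on both sides of 0. In all, 24 pairs of probes of 1 gene were compared, and in 7 the difference took the same sign on all 3 arrays. None can pass an exact test with 3 arrays.

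By SD across probes, replicate 3 had the widest spread, both for the members and over all tested probes. The mean absolute log2 ratio over all tested probes was instead largest on replicate 1, at 0.268 against 0.258 on replicate 3. The members' log2 ratios had an SD across probes of 0.31, 0.29 and 0.45 on replicates 1, 2 and 3, beside 0.35, 0.32 and 0.38 over all tested probes. The software also gives a p for each spot, which compares the 2 pools of 1 array and not the genotypes. At a software p under 0.05, leaving out spots saturated in both channels, replicate 3 had 7 of 22 member probes higher, against 19.5% of all tested probes, and 4 lower, against 22.4%. The 7 were all 5 Pdlim5 probes and 1 each of Myoz2 and Flnc, and the 4 were the 3 tested Nebl probes and the other Myoz2 probe. Replicate 1 had 2 of 23 higher (background 11.2%) and 1, Actn2, lower (background 9.42%), and replicate 2 had 1 of 22 higher (background 9.84%) and 1 lower (background 2.87%). Replicate 1 was scanned and extracted with an older scanner and software version than replicates 2 and 3, and 1 array does not give a within-batch value. On replicates 2 and 3 alone, 0 members were called in a fit that called 2 probes higher (0.00702%) and 0 lower over all probes tested.

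**Figure D3:**
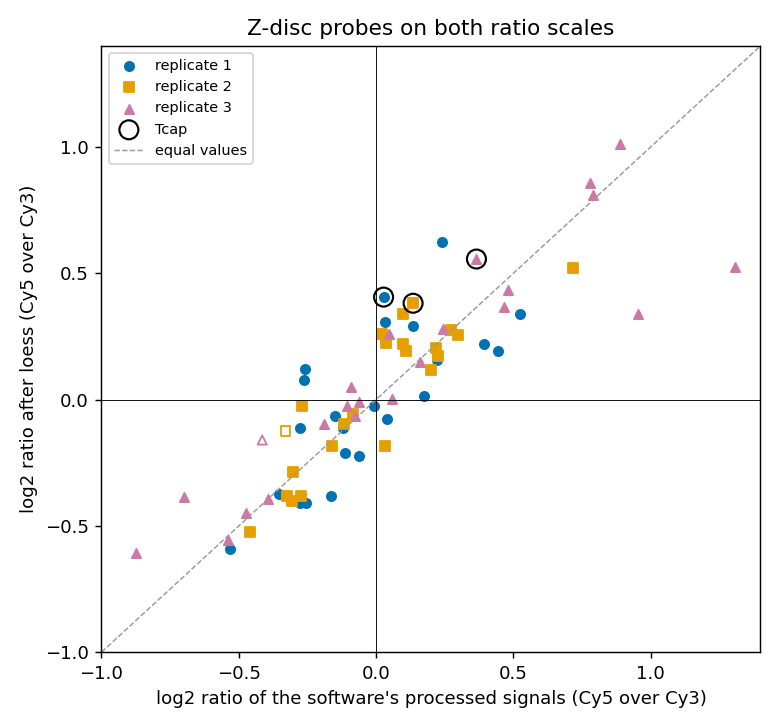
Log2 ratios of the 23 tested Z-disc probes on each array, after loess (y axis) against the ratio of the software's processed signals (x axis), both Cy5 over Cy3. Each symbol is 1 probe on 1 array, open symbols are saturated in both channels, the circles mark Tcap, and the dashed line marks equal values. Tcap lies above the line on all 3 arrays, at 0.41, 0.38 and 0.56 after loess.

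The 2 scales gave opposite signs for the mean of 3 member probes, those of Csrp3, Myoz2 A_52_P403266 and Flnc A_51_P185664, whose loess means lay between -0.07 and 0.04. The loess ratio less the software ratio ranged from -0.25 to 0.39 on replicate 1, from -0.21 to 0.25 on replicate 2 and from -0.78 to 0.31 on replicate 3. The lowest value was that of the dim Pdlim5 probe A_52_P339246, whose ratio on replicate 3 was 0.52 after loess and 1.31 by the software. Some bright probes, those of Tcap, Csrp3, Myoz2 and Cryab, had higher means after loess, by 0.27, 0.24, 0.23 and 0.19. So did Flnc A_51_P205907 (0.24) and Ldb3 A_51_P265348 (0.22). Other bright probes moved less: Actn2 by 0.03, and the brightest Pdlim5 and Flnc probes by -0.02 and -0.07.

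Of the other genes of the Z-disc, 34 of 35 listed genes were tested, each by its brightest probe, and 0 were called in either direction. Their median log2 ratio was -0.04, with 14 genes above and 20 below 0. Among the 20, Ankrd1, Fhl1, Fhl2, Nexn, Palld, Smpx and Synpo2l were saturated on 1 or more arrays, where the scanner limits the ratio. At an unadjusted p under 0.05, 3 genes of the list were higher, against 9.07% of all probes, and 1 was lower, against 4.26%. Those of lowest p, none of which passed, were Trim55 at 0.43 (limma adjusted p = 0.251), Xirp2 at 0.70 (limma adjusted p = 0.30) and Cmya5 at 0.44 (limma adjusted p = 0.337) on the higher side. Trim55 encodes the ubiquitin ligase MURF2, Xirp2 an actin-binding repeat protein, and Cmya5 the large protein myospryn. On the lower side they were Pdlim7, a PDZ-LIM relative of Ldb3 and Pdlim5, at -0.40 (limma adjusted p = 0.194), Xirp1 at -0.26 (limma adjusted p = 0.433) and Synpo2 at -0.29 (limma adjusted p = 0.434). Calls in this list, like those over all probes, depended on replicate 3. On the 3 arrays Xirp2 gave 1.45, 0.70 and -0.05, Cmya5 gave 0.83, 0.54 and -0.03, and Trim55 gave 0.58, 0.57 and 0.13. Without replicate 3, Xirp2 (1.07; limma adjusted p = 5.83e-05), Cmya5 (0.68; limma adjusted p = 0.00423) and Trim55 (0.57; limma adjusted p = 0.0164) were called higher. That fit called 1687 probes higher over the whole array, against 395 with all 3 arrays. The share of all tested probes that the 1687 make was not computed, so that these calls are not read as a result about the list. In that fit the other Xirp2 probe gave 0.07 and the other Cmya5 probes 0.03 and 0.29, none of them called, while Trim55 had 1 tested probe.

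Paralogs of the members, other genes of the same protein families, were tested for 26 of 27 genes, and 0 were called. Their median was -0.07, with 10 genes above and 16 below 0, and among the 16, Vim and Csrp2 were saturated on 1 or more arrays. At an unadjusted p under 0.05, 1 paralog was higher (background 9.07%) and 4 were lower (background 4.26%). Some of them also stand in the other lists. Lasp1, a small relative of nebulette, was lowest in p at -0.44 ± 0.06 (SD, n = 3; limma adjusted p = 0.170), below 0 on all 3 arrays. Pdlim7 followed, and then Actn4, a non-muscle α-actinin, at -0.38 ± 0.18 (SD, n = 3; limma adjusted p = 0.257). The other Lasp1 probes averaged 0.26, -0.37 and 0.02. On the higher side were Hspb2 at 0.30 (limma adjusted p = 0.347), Myoz3 at 0.17 (limma adjusted p = 0.583) and Myoz1 at 0.16 (limma adjusted p = 0.683). Without replicate 3, 1 paralog was called, Csrp1, the smooth muscle relative of Csrp3, at -0.76 (limma adjusted p = 0.00130), whose ratios on replicates 1, 2 and 3 were -0.89, -0.64 and 0.39. That fit called 297 probes lower over the whole array, against 1 with all 3 arrays. The share that the 297 make of all tested probes was likewise not computed, so that the Csrp1 call is not read as a result about the paralogs.

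The partners of desmin and the small heat shock proteins gave the same count, 0 of 16 genes called, with a median of -0.08. There were 5 genes above and 11 below 0, and among the 11, Vim and Hspa8 were saturated on 1 or more arrays. At an unadjusted p under 0.05, 1 gene was higher (background 9.07%) and 1 lower (background 4.26%). Hspb2, which lies beside Cryab in the genome and encodes a chaperone of muscle, gave 0.31, 0.17 and 0.41 on the 3 arrays, and Stub1 and Hspb7 averaged 0.09 and 0.11. Hspb6, a further small heat shock protein, was lowest at -0.54 ± 0.66 (SD, n = 3; limma adjusted p = 0.370), with -1.29 on replicate 3. Pkp2, a desmosome protein, averaged -0.20 (limma adjusted p = 0.526), and Synm, an intermediate filament partner of desmin, -0.24 (limma adjusted p = 0.538).

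**Figure D4:**
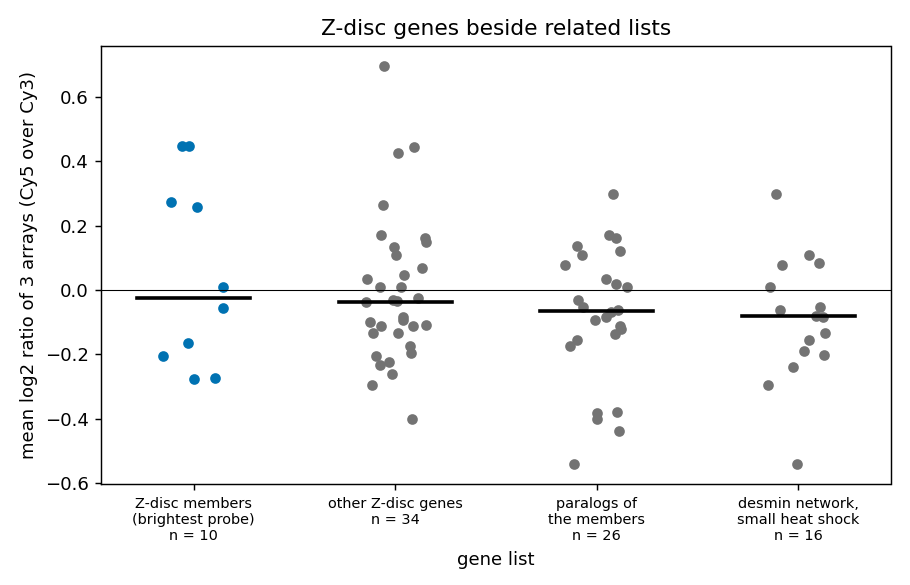
Mean log2 ratio over 3 arrays (y axis, Cy5 over Cy3) of each gene by its brightest tested probe, for the 10 Z-disc members, 34 other Z-disc genes, 26 paralogs of the members and 16 desmin partners and small heat shock proteins (x axis). Bars are medians, at -0.02, -0.04, -0.07 and -0.08. Each list has genes on both sides of 0, and genes saturated on some arrays are included.

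Markers of the tissue and of other cells are given beside these values, and their part in them was not tested. All 15 cardiomyocyte markers were tested, with a median of -0.13 and 13 below 0, and 5 of them were saturated in both channels on every array. Tnni3, Myl7, Tnni1, Tnnc1 and Myh6 were also saturated in 1 or both channels on 1 or more arrays. The list's medians on replicates 2 and 3, -0.12 and -0.16, lay within the ranges of probes saturated in both channels there. Its median and its count below 0 are thus limited by the scanner. Skeletal muscle markers had a median of 0.02 (12 of 13 tested), smooth muscle -0.15, endothelial -0.08, fibroblast and mesenchyme -0.09, epicardial 0.0084 and erythroid -0.17. Liver markers, of which 4 of 7 were tested, had medians of 0.76, -2.04 and 0.13 on replicates 1, 2 and 3. In each of these lists 0 genes were called. Over all gene spots, 63.9% to 93.2% were well above background per channel and array, and both channels were lowest on replicate 3.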

How the data were processed

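Spot intensities were deposited as scanner files of 3 two-colour arrays. Per the file headers, replicate 1 was scanned on a G2505B and read by Agilent Feature Extraction in version 9.1.3.1. Its protocol has local background in its name and is marked as editable. Replicates 2 and 3 were scanned on a G2505C and read in version 10.7.3.1. The authors' software had background-subtracted and dye-normalised the processed intensities. The deposited log10 ratio is that of processed Cy5 over Cy3, the deposited p-value tests it within 1 array, and other deposited columns are flags for saturation, non-uniformity and signal above background. Every value of the series table that the authors deposited was the log10 ratio of that spot (largest difference 0), which settles its scale, centring and direction, and its columns had medians of -0.0081, -0.0060 and 0.

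Log2 ratios came from limma 3.58.1 (R 4.3.3): normexp (offset 50) on mean signal and median local background, loess within arrays with control spots at weight 0, non-uniform spots left out, and spots of 1 probe averaged. Loess assumes that most probes are level between channels at each brightness. Probes well above background in Cy5 or in Cy3 on all arrays were tested against 0 (lmFit, eBayes, two-sided; Benjamini-Hochberg; threshold 0.05). Saturated spots were kept, and a channel within 1% of the scanner limit was counted as saturated. Intervals are at 95% and not adjusted. Replicates are separate pools, and 3 arrays limit every estimate. A gene was represented by its tested probe of highest mean intensity. Symbols were updated through a RefSeq table of GRCm38.p6, which held the accessions of 27030 of 28129 probes with one. Positions are those of the files (mm9). The methods' selection (software p under 0.05, processed signal of at least 20, 1.2-fold) was applied to the software's ratios, since the EDGE3 step was not rerun. Simulated data with known changes tested the scripts.

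Named are Lrrc10, every member probe, and in each related list the 3 genes of lowest p in each direction, with any that passed. Members and lists were chosen with earlier results of these data known. Alternatives covered background correction, normalisation, scaling, filters, saturated spots, the methods' t-test, an intensity trend, array weights, software version as a covariate, and leaving out each array. Saturated spots were left out only after loess had been fitted with them. That alternative therefore cannot show how they bear on the ratios of unsaturated probes.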

Additional observations from a re-analysis of the deposited data

How the results depend on the processing

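In the member counts, 0 probes were called under any of the 14 alternatives. Over all probes, the count called higher was 0 under the methods' t-test, from processed signals and from scaled ratios, 1 with the software version as a covariate or with no background corrected, and 145 without a filter on dim probes; leaving out 1 array gave 1 to 1687. The count called lower was 0 under each of those alternatives, 2 with median centring, 3 with an intensity trend and 11 with array weights; leaving out 1 array gave 0 to 297. Leaving out 1 array gave 0 to 3 other Z-disc genes called higher, 0 to 1 paralog called, and 0 to 1 member probe past the 1.2-fold rule as higher. Lrrc10 stayed at the same sign but was not called with the software's processed signals (5.21), with scaled ratios (4.60) or with the methods' t-test (4.41), at adjusted p of 0.270, 0.381 and 0.504.

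The brightest probes of Actn2, Des, Tcap, Myoz2 and Nebl kept their sign under every alternative that was run. Ldb3 (-0.05) became 0.025 with array weights, 0.030 as the mean over its probes, and -0.21 to 0.12 when 1 array was left out. Pdlim5 (0.27) was -0.019 to 0.52 when 1 array was left out. Csrp3 (0.0079) became -0.24 with processed signals, -0.0036 without background correction, -0.10 with median centring, -0.025 with scaled ratios, and -0.14 to 0.092 when 1 array was left out; with saturated spots left out it has 1 array and was not run. As means over probes, Cryab became -0.00098 and Flnc 0.016. The cause of these reversals was not tested. Each ratio already pairs the 2 pools of 1 array.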
